A study of Mus musculus with 16 samples.

Results

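The 10 genes described here encode signals of the TGF-beta superfamily and proteins that receive or hold back those signals. They were chosen by name, with earlier results of these data known. Each was matched to the count table by Ensembl gene identifier through its symbol in the GRCm38 annotation, and together they are 10 of 55536 genes listed there. They are the ligand genes Tgfb1, Tgfb2, Inhba, Inhbb and Bmp4, the receptor gene Tgfbr2, the genes of the secreted antagonists or modulators Fst, Fstl1 and Sostdc1, and the gene of the intracellular inhibitor Smad7. All 10 passed the filter on low counts, as did 15316 of the 55536 genes. RNA was measured in 16 libraries of a mouse inner medullary collecting duct cell line, in 4 groups of 4.

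The groups were passage 4 with DOX (doxycycline), passage 4 without DOX, passage 7 with DOX and passage 7 without DOX. All were cells of a single line from a Pkd2 knockout mouse in which DOX induces the knockout. The genotype label is Pkd2KO induced by DOX in the 2 groups with DOX and wild type in the 2 without it, while the titles call the cells of every group Pkd2KO cells. The cells stood on permeable filters for 10 days, with or without 2 ug/mL DOX for 6 days. Pkd2 encodes polycystin-2, a calcium-permeable channel of the primary cilium whose loss causes cystic kidneys. With no DOX-treated cells that keep Pkd2 among the groups, DOX itself and the loss of Pkd2 cannot be told apart. No label says whether replicates were separate cultures, so the p-values reflect nothing beyond the spread among these libraries, which may be technical.

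Ligands of this family bind paired type I and type II serine/threonine kinase receptors at the cell surface, and the receptors phosphorylate SMAD proteins that move to the nucleus. TGF-beta and activin ligands act mainly through SMAD2 and SMAD3, and BMP ligands through SMAD1, SMAD5 and SMAD8. In the kidney, TGF-beta is best known for matrix deposition and fibrosis, and BMP signals and their antagonists for branching and tubule repair.

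Totals ran from 9937504 to 17188295 counts per library. Levels are CPM (counts scaled to library size), with TMM scaling, and a change was called when its adjusted p (edgeR's quasi-likelihood test, Benjamini-Hochberg over all 15316 genes) was under 0.05. Pkd2 had 52.1, 47.8, 53.6 and 57.4 CPM at passage 4 with DOX, against 145, 142, 135 and 138 CPM without DOX. At passage 7 it had 47.6, 52.9, 60.3 and 65.9 CPM with DOX, against 187, 185, 184 and 185 CPM without DOX. The groups did not overlap, and Pkd2 fell to 37.6% of the level without DOX at passage 4 and to 30.6% at passage 7 (edgeR adjusted p = 8.8e-10 and 4.3e-11; exact permutation p = 0.0286 each, two-sided, the smallest that 4 against 4 allows). The groups follow the headers of the count table, because 12 of the 16 headers of the deposited TPM table stand over the values of another group. The count headers fit the Pkd2 levels as to DOX, but Pkd2 is not an independent check of them. It cannot check passage, since its libraries with DOX overlapped between passages 4 and 7. The passage comparisons rest on the count headers as deposited. The epithelial markers Cdh1, Epcam and Krt8 averaged at least 484 CPM in every group. Of 10 tubule epithelium markers, 1 was higher and 4 lower with DOX at passage 4 (17.5% of all genes were called). At passage 7, 1 was higher and 6 lower (22.6% called), with Krt8 lower at both. Among principal cell genes, the sodium channel gene Scnn1a averaged at least 105 CPM and Tfcp2l1 at least 289.5 CPM. Hsd11b2 and Gata3 averaged 3.94 to 15.9 CPM, and Scnn1b, Scnn1g, Avpr2, Aqp3, Aqp4, Elf5 and Kcnj1 at most 3.34 CPM. Aqp2, the water channel that defines principal cells, had 0 counts in all 16 libraries. With the groups held constant, 36.9% of all genes tested were called different between replicates 3 and 4 and replicates 1 and 2, and no label says what the numbers mark.

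To show the regions ahead of genes whose level moved, the 250 bases before the RefSeq start are given for the ligand gene and the receptor gene that fell with DOX, and for Bmp4, the ligand gene whose libraries at passage 7 with DOX all lay above those of every other group. RefSeq promoter windows (GRCm38.p6) were found for 7 of the 10 genes, and Fst, Sostdc1 and Smad7 were not among them. Each sequence runs 5′ to 3′ on the gene's own strand. Capitals mark CAGAC, the short element bound by SMAD3 and SMAD4. Tgfb2 lies on the minus strand and its window is chr1:186705990-186706239, Tgfbr2 lies on the minus strand with chr9:116175364-116175613, and Bmp4 lies on the minus strand with chr14:46390670-46390919.
Tgfb2: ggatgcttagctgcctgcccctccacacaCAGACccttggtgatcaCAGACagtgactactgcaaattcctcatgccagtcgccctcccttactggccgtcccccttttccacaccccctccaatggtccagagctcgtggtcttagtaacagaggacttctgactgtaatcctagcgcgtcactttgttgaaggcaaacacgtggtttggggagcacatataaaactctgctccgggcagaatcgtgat
Tgfbr2: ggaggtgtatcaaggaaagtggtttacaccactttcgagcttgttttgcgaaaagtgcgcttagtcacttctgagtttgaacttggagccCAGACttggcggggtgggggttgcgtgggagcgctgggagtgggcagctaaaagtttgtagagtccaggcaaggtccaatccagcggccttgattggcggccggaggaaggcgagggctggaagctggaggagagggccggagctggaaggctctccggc
Bmp4: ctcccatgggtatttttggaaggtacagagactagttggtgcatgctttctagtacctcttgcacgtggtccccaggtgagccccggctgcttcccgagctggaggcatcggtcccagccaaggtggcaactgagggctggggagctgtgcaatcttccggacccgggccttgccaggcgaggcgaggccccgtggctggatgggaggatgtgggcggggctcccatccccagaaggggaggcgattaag
The window of Tgfb2 holds CAGAC at 221 and 204 bases before the start, that of Tgfbr2 holds it at 160 bases, and that of Bmp4 holds no CAGAC on either strand. The windows of Tgfb1, Inhba, Inhbb and Fstl1, not shown, hold none either. Fstl1 also fell with DOX at passage 4, so CAGAC did not mark every gene that fell. Of the 250 bases of its window, 182 lie in its own annotated exons. CAGAC or its reverse complement GTCTG is common, found in 42.2% of 32851 such windows. The palindrome GTCTAGAC, found in 0.167% of windows, and the GC-rich element GGCGCC, found in 9.59%, were searched on both strands and were in none of the 3 windows. A match of letters is a description and not a binding site.

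With DOX at passage 4, 4 of the 10 genes fell and none rose. Those that fell were the ligand gene Tgfb2 and the 3 secreted antagonist or modulator genes Fst, Fstl1 and Sostdc1, and none of the 4 overlapped between groups. Over all genes tested, 17.5% were called, 8.45% higher and 9.1% lower, and 11% were lower without overlap. The count of 0 higher was also 0 at an unadjusted p under 0.05 in edgeR and 0 in DESeq2, and 5 genes were lower at an unadjusted p under 0.05. The shares of all genes above are for adjusted edgeR calls and do not serve as background for these other counts. The median log2 fold change of the 10 genes was -0.37, beside 0.00 over all genes.

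With DOX at passage 7, 3 of the 10 fell, namely Tgfbr2, Fst and Sostdc1, and none rose, where 22.6% of all genes were called, 11.1% higher and 11.6% lower. At passage 7, 1 gene was higher at an unadjusted p under 0.05 in edgeR, 4 were lower, and DESeq2 called 0 higher and 3 lower. The share of all genes by either of these rules is not given, so these counts stand without a background. The median of the 10 was -0.31, beside -0.01 over all genes. Lower without overlap were 3 of the 10, as were 12.8% of all genes. Fst and Sostdc1, 2 of the 10, fell at both passages, as did 6.08% of all genes; the passages share no libraries. With the replicate number as a block, edgeR called 5 genes lower at passage 4, and 2 higher and 5 lower at passage 7; the values of the added genes stand with each gene. In that fit 27.3% of all genes were called at passage 4 and 31.7% at passage 7.

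**Figure D1:**
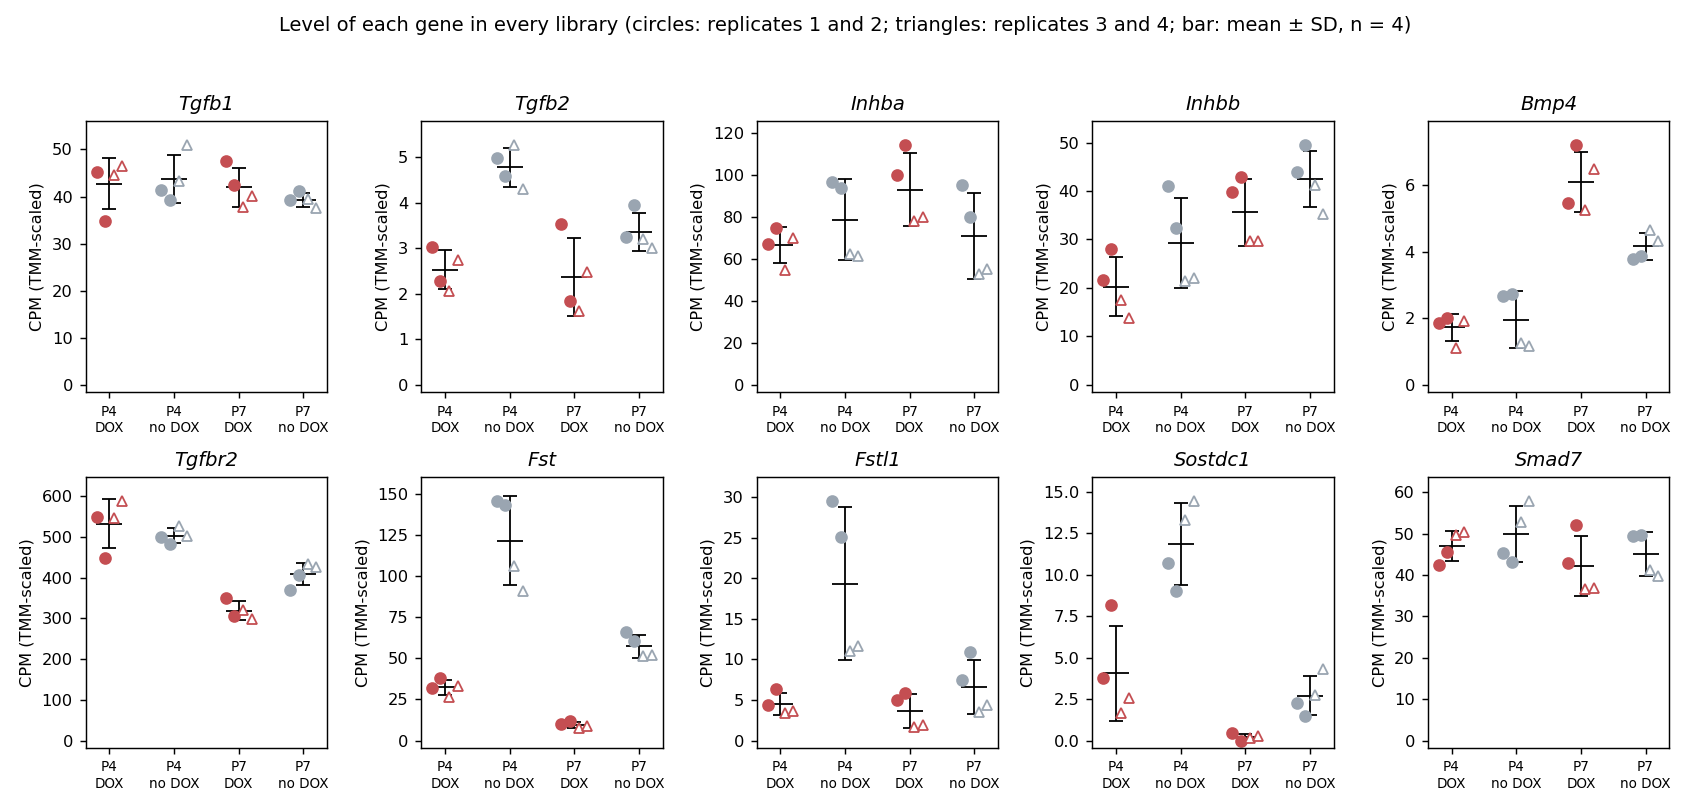
Each panel plots 1 gene's level in CPM (vertical axis) in the 4 groups, 1 point per library, with circles for replicates 1 and 2, triangles for replicates 3 and 4 and a bar for the mean ± SD (n = 4). Fst lies lower with DOX at both passages without overlap, Bmp4 is at 5.24 to 7.19 CPM at passage 7 with DOX, and the triangles lie below the circles for Fstl1 in every group.

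Among the ligands, Tgfb1 encodes the most studied TGF-beta isoform, which is secreted in a latent complex. It had 45.3, 34.8, 44.5 and 46.4 CPM at passage 4 with DOX, against 41.5, 39.3, 43.3 and 50.9 CPM without DOX. At passage 7 it had 47.6, 42.4, 37.8 and 40.1 CPM with DOX, against 39.2, 41.2, 39.4 and 37.5 CPM without DOX. The groups overlapped at both passages, and the interval of the log2 change with DOX ran from -0.24 to 0.17 at passage 4 and from -0.11 to 0.29 at passage 7 (95%). Tgfb1 was called in no comparison, and of the 10 genes the same held for Inhba and Smad7.

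Tgfb2 encodes a second TGF-beta isoform, whose loss disturbs the development of several organs in the mouse. At passage 4 it had 3.02, 2.29, 2.06 and 2.73 CPM with DOX, against 4.98, 4.58, 5.26 and 4.30 CPM without DOX. The 2 groups did not overlap, and Tgfb2 fell to 52.9% of the level without DOX (log2 change -0.92, SE 0.20, edgeR adjusted p = 0.0030). The passage 7 levels were 3.52, 1.83, 1.62 and 2.48 CPM with DOX, against 3.25, 3.95, 3.21 and 3.01 CPM without DOX, so replicate 1 with DOX lay among the libraries without. The log2 change there was -0.54 with SE 0.21 (edgeR adjusted p = 0.077), or -0.54 with the replicate block (adjusted p = 0.048) and -0.76 without that library (adjusted p = 0.0096). With each library left out in turn, the edgeR adjusted p ran from 0.0096 to 0.25. Only leaving out that library brought it under 0.05. The 2 responses were not shown to differ (difference 0.38, SE 0.29, adjusted p = 0.69). Tgfb2 counts were low, 24 to 79 per library, and its exons overlap those of Gm29491 on the other strand, which had 0 to 3 counts.

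Inhba encodes the beta A subunit of activin A and of inhibin A. It had 67.2, 74.8, 54.5 and 70.1 CPM at passage 4 with DOX, against 96.6, 93.7, 62.5 and 61.4 CPM without DOX. The passage 7 levels were 100.1, 113.9, 77.8 and 79.7 CPM with DOX, against 95.1, 80.02, 52.7 and 55.0 CPM without DOX. Groups overlapped at both passages, and replicates 1 and 2 exceeded 3 and 4 in every group except passage 4 with DOX, where replicate 4 lay between them. Inhba was not called at passage 4 (log2 change -0.23, SE 0.21, edgeR adjusted p = 0.52) or at passage 7 (0.39, SE 0.21, adjusted p = 0.22). The replicate block gave a change of 0.41 at passage 7 (adjusted p = 0.0069) and a difference of the 2 responses of 0.62 (adjusted p = 0.024, against 0.45 with no block). Within replicates 1 and 2 the change at passage 4 was -0.42 (adjusted p = 0.0040), and within replicates 3 and 4 it was 0.01 (adjusted p = 0.96). No test compared these 2 changes.

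Inhbb encodes the beta B subunit of activin B. It had 21.6, 28.1, 17.5 and 13.9 CPM at passage 4 with DOX, against 41.0, 32.4, 21.4 and 22.1 CPM without DOX. Its levels at passage 7 were 39.8, 42.99, 29.8 and 29.8 CPM with DOX, against 43.9, 49.4, 41.3 and 35.3 CPM without DOX. Replicates 1 and 2 were higher than 3 and 4 in all 4 groups, and the groups overlapped at both passages. The log2 change was -0.51 at passage 4 (SE 0.24, edgeR adjusted p = 0.16) and -0.26 at passage 7 (SE 0.23, adjusted p = 0.46). The replicate block gave a change at passage 4 of -0.51 with SE 0.11 (adjusted p = 0.0023).

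Bmp4 encodes a BMP ligand that acts in ureter and collecting system development. At passage 4 it had 1.86, 2.00, 1.12 and 1.93 CPM with DOX, against 2.65, 2.73, 1.27 and 1.17 CPM without DOX, and these groups overlapped. Its levels at passage 7 were 5.46, 7.19, 5.24 and 6.48 CPM with DOX, against 3.77, 3.87, 4.66 and 4.31 CPM without DOX. There every library with DOX exceeded every library without, which held in the higher direction for 12.4% of all genes. The log2 change at passage 7 was 0.56 (SE 0.21, edgeR adjusted p = 0.070), and the replicate block gave 0.55 (adjusted p = 0.028). A fit on the 8 passage 7 libraries alone gave 0.56 (adjusted p = 0.022). DESeq2 did not call this rise. With each library left out in turn it was not called either, with an edgeR adjusted p of 0.051 to 0.17. The difference of the 2 responses was 0.71 (SE 0.35, adjusted p = 0.45). Bmp4 counts were 13 to 102 per library, and its exons overlap those of Gm15217 on the other strand, which had 0 to 9 counts.

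Tgfbr2 encodes the type II receptor that binds TGF-beta and activates the type I receptor. It had the highest level of the 10 genes per length of exon in each of the 4 groups. Its mean was 65.1 ± 7.31 CPM per kb at passage 4 with DOX, 61.5 ± 2.19 at passage 4 without DOX, 39.0 ± 2.82 at passage 7 with DOX and 49.98 ± 3.42 CPM per kb at passage 7 without DOX (SD, n = 4). No other gene's libraries overlapped with those of Tgfbr2 in any group. Next by mean came Inhba at passage 4 with DOX (10.4 CPM per kb) and at passage 7 with DOX (14.5), and Fst at passage 4 without DOX (26.4) and at passage 7 without DOX (12.5). The libraries of Inhba overlapped with those of Smad7 at passage 4 with DOX, and those of Fst with Inhba at passage 7 without DOX. The lowest mean was that of Tgfb2 in 3 groups, at 0.437 CPM per kb at passage 4 with DOX, 0.825 at passage 4 without DOX and 0.580 at passage 7 without DOX. At passage 7 with DOX it was that of Sostdc1, at 0.115 CPM per kb. In both passage 4 groups the libraries of Tgfb2 overlapped with those of Bmp4, the next lowest by mean.

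Across the groups, Tgfbr2 had 548, 448, 547 and 589 CPM at passage 4 with DOX, against 499.7, 484, 527 and 503 CPM without DOX. In passage 7 cells it had 351, 306, 322 and 299 CPM with DOX, against 371, 407, 434 and 425 CPM without DOX. The groups overlapped at passage 4, where the log2 change was 0.08 (95% interval -0.07 to 0.24). At passage 7 they did not, and Tgfbr2 fell to 78.0% of the level without DOX (log2 change -0.36, SE 0.07, edgeR adjusted p = 0.0016). The response at passage 7 minus that at passage 4 was -0.44 (SE 0.10, adjusted p = 0.0465), and Tgfbr2 was the one gene of the 10 whose responses were called different, where 1.19% of all genes were, 0.516% higher and 0.679% lower. None of the 10 was called with a higher response at passage 7, with 0 at an unadjusted p under 0.05 in edgeR and 0 in DESeq2. The median difference of the 10 was 0.19, beside -0.001 over all genes. The call is close to the threshold, since leaving out any of 13 of the 16 libraries lifted its adjusted p above 0.05, with a range of 0.0060 to 0.11 over all 16. The replicate block gave an adjusted p of 0.0057, and it called 2 genes higher (Inhba and Fstl1) and 2 lower (Tgfbr2 and Fst), where 4.67% of all genes were called.

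**Figure D2:**
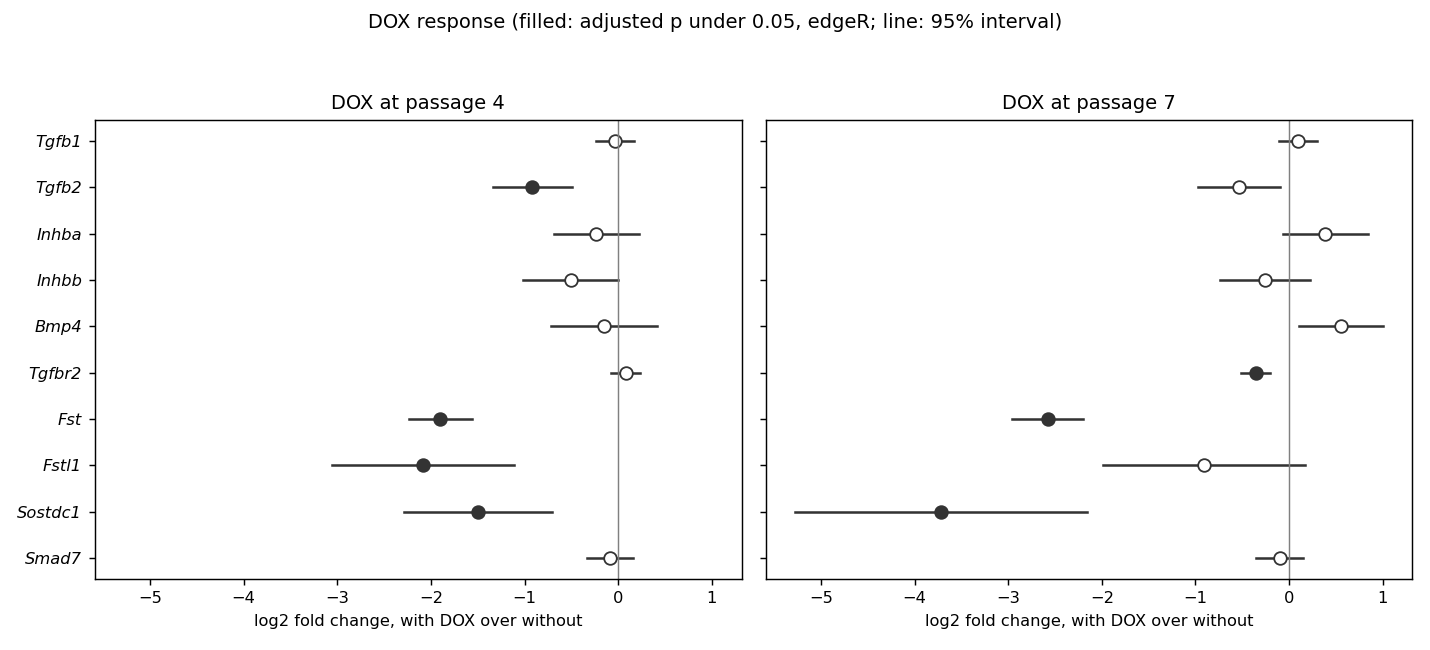
The log2 fold change with DOX over without DOX (horizontal axis) is plotted for each of the 10 genes at passage 4 (left) and passage 7 (right), with its 95% interval as a line and a filled point where the adjusted p was under 0.05. The intervals of Fst and Sostdc1 lie below 0 in both panels, that of Tgfbr2 spans 0 at passage 4 and lies below 0 at passage 7, and Tgfb1 and Smad7 stay near 0 in both.

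Among the antagonists, Fst encodes follistatin, which binds activins and keeps them from their receptors. At passage 4 it had 32.1, 37.8, 26.6 and 32.8 CPM with DOX, against 146, 143, 106 and 91.0 CPM without DOX. In passage 7 cells it had 10.04, 11.98, 7.55 and 9.08 CPM with DOX, against 65.6, 60.7, 51.4 and 51.9 CPM without DOX. No library of 1 group overlapped with another group, in the order passage 4 without DOX, passage 7 without DOX, passage 4 with DOX and passage 7 with DOX. Fst fell to 26.7% of the level without DOX at passage 4 (log2 change -1.90, SE 0.16, edgeR adjusted p = 4.4e-07). It fell to 16.7% at passage 7 (log2 change -2.58, SE 0.18, adjusted p = 4.2e-08). The difference of the responses was -0.68 (SE 0.24, adjusted p = 0.23), and with the replicate block -0.68 (SE 0.13, adjusted p = 0.0039). The gene Gm47040 on the other strand, whose exons overlap those of Fst, had 9 to 163 counts and fell with DOX too, with log2 changes of -1.92 at passage 4 and -2.16 at passage 7; whether counting used strand is not given, so reads of Fst and Gm47040 may be mixed.

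The 2 activin subunit genes, whose products follistatin binds, had no called change with DOX where Fst fell, but the replicate block called Inhbb lower at passage 4 and Inhba higher at passage 7 (values above). At passage 4, Fst averaged 7.04 ± 1.00 CPM per kb with DOX and 26.4 ± 5.89 without DOX (SD, n = 4). Inhba averaged 10.4 ± 1.36 CPM per kb with DOX and 12.3 ± 3.01 without DOX, and Inhbb 4.77 ± 1.43 with DOX and 6.87 ± 2.18 CPM per kb without DOX. At passage 7, Fst averaged 2.11 ± 0.404 CPM per kb with DOX and 12.5 ± 1.52 without DOX, while Inhba averaged 14.5 ± 2.71 with DOX and 11.1 ± 3.20 CPM per kb without DOX. Inhbb averaged 8.36 ± 1.61 CPM per kb with DOX and 9.98 ± 1.38 without DOX at passage 7. In both groups with DOX every library had more Inhba than any had Fst per length. Without DOX the reverse held at passage 4, and at passage 7 the libraries of both genes overlapped.

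Fstl1 encodes a secreted follistatin-like glycoprotein that can bind BMP4 and other ligands. It had 4.42, 6.35, 3.35 and 3.70 CPM at passage 4 with DOX, against 29.5, 25.1, 11.1 and 11.6 CPM without DOX. The groups did not overlap, and Fstl1 fell to 23.6% of the level without DOX (log2 change -2.08, SE 0.45, edgeR adjusted p = 0.0050). Passage 7 cells had 5.02, 5.85, 1.68 and 1.97 CPM with DOX, against 7.47, 10.9, 3.53 and 4.41 CPM without DOX, with overlap between the groups. The log2 change there was -0.91 (SE 0.50, adjusted p = 0.23). Replicates 3 and 4 were lower than 1 and 2 by a log2 difference of -1.18 (SE 0.11) over all groups, the largest such difference among the 10 genes. With the replicate block the change at passage 7 was -0.88 (adjusted p = 0.00059), and the difference of the responses was 1.21 (adjusted p = 0.0042, against 0.56 with no block).

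Sostdc1 encodes sclerostin domain-containing 1, a secreted BMP antagonist of kidney tubules that also modulates Wnt signals. At passage 4 it had 3.80, 8.17, 1.63 and 2.57 CPM with DOX, against 10.7, 9.02, 13.3 and 14.5 CPM without DOX. The groups did not overlap, but replicate 2 with DOX lay close to the lowest library without DOX. Sostdc1 fell to 35.4% of the level without DOX (log2 change -1.50, SE 0.37, edgeR adjusted p = 0.010). Without that replicate the log2 change was -2.14 (adjusted p = 0.00017). Within replicates 1 and 2 it was -0.67 (adjusted p = 0.13) and within replicates 3 and 4 it was -2.71 (adjusted p = 4.3e-05). Whether these 2 values differ was not tested.

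At passage 7, Sostdc1 was nearly undetected with DOX, at 5, 0, 2 and 4 counts in the 4 libraries, against 31, 19, 34 and 43 counts without DOX. These are 0.440, 0, 0.125 and 0.254 CPM with DOX, against 2.29, 1.502, 2.73 and 4.31 CPM without DOX. The 0 in replicate 2 allows up to 0.211 CPM (3 counts). The 11 counts of the group with DOX amounted to 7.34% of the level behind the 127 counts without DOX, with an exact 95% interval of 3.58% to 13.6% that covers counting error only. The fitted log2 change was -3.72 (SE 0.73, edgeR adjusted p = 0.0016) and rests on these few counts. The difference of the responses was -2.22 (SE 0.89, adjusted p = 0.33).

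Smad7 encodes the inhibitory SMAD, which blocks activated type I receptors and is itself induced by TGF-beta. It had 42.5, 45.4, 49.7 and 50.4 CPM at passage 4 with DOX, against 45.4, 43.2, 52.7 and 57.9 CPM without DOX. At passage 7 it had 42.99, 52.1, 36.5 and 36.9 CPM with DOX, against 49.5, 49.7, 41.2 and 39.7 CPM without DOX. Groups overlapped at both passages, with 95% intervals of the log2 change of -0.33 to 0.16 at passage 4 and -0.35 to 0.15 at passage 7.

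Between passages, 5 of the 10 genes changed with DOX and 5 without DOX. The 2 comparisons share no libraries with each other, but each shares its libraries with the DOX comparisons. With DOX, Inhbb and Bmp4 rose and Tgfbr2, Fst and Sostdc1 fell at passage 7 against passage 4, where 34.1% of all genes were called, 18.3% higher and 15.8% lower. Without DOX, Bmp4 rose and Tgfbr2, Fst, Fstl1 and Sostdc1 fell, where 25.6% of all genes were called, 14.3% higher and 11.3% lower. Without overlap between passages were 3 genes higher and 3 lower with DOX (32.4% of all genes) and 1 higher and 5 lower without DOX (26.9% of all genes). The median log2 change of the 10 genes was -0.14 with DOX and -0.23 without DOX, beside -0.01 over all genes in each. With the replicate block, edgeR called 3 higher and 3 lower with DOX, where 44.7% of all genes were called, and 2 higher and 5 lower without DOX, where 37% were.

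**Figure D3:**
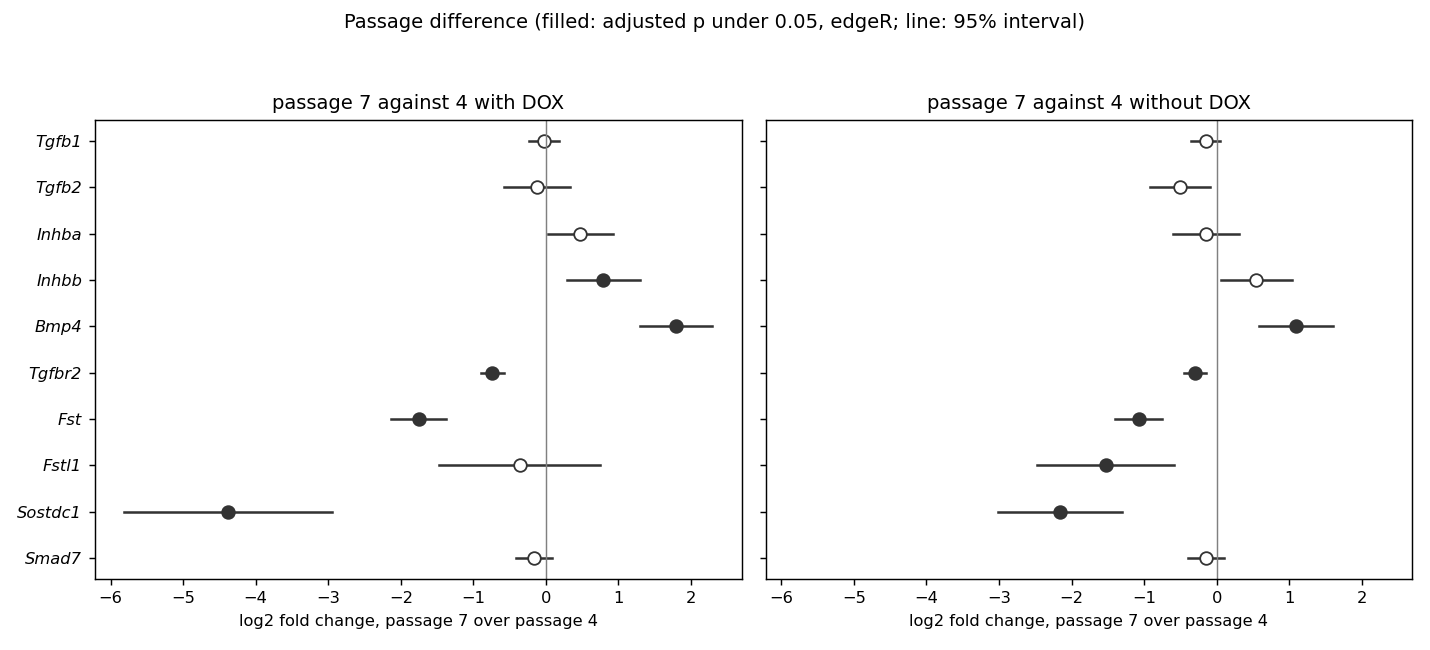
The log2 fold change at passage 7 over passage 4 (horizontal axis) is plotted for each of the 10 genes in cells with DOX (left) and without DOX (right), with its 95% interval as a line and a filled point where the adjusted p was under 0.05. Bmp4 lies above 0 in both panels, at 1.80 with DOX and 1.09 without, and Tgfbr2, Fst and Sostdc1 lie below 0 in both.

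Bmp4 showed the largest rise of the 10 genes with passage. With DOX it averaged 6.09 ± 0.907 CPM at passage 7 and 1.73 ± 0.410 CPM at passage 4 (SD, n = 4), a 3.48-fold level (log2 change 1.80, SE 0.24, edgeR adjusted p = 1.4e-05). Without DOX it averaged 4.15 ± 0.410 CPM at passage 7 and 1.96 ± 0.853 CPM at passage 4, a 2.13-fold level (log2 change 1.09, SE 0.24, adjusted p = 0.0031). Within replicates 1 and 2 the change without DOX was 0.50 (adjusted p = 0.13), and within replicates 3 and 4 it was 1.87 (adjusted p = 1e-05). A difference between these 2 changes was not tested. No library of passage 7 overlapped with passage 4 in either condition.

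Inhbb with DOX averaged 35.6 ± 6.84 CPM at passage 7 and 20.3 ± 6.09 CPM at passage 4, and rose 1.73-fold (log2 change 0.79, SE 0.23, edgeR adjusted p = 0.017). Without replicate 2 of passage 7 with DOX its adjusted p was 0.051. Without DOX, Inhbb averaged 42.5 ± 5.86 CPM at passage 7 and 29.2 ± 9.29 CPM at passage 4 (log2 change 0.55, SE 0.23, adjusted p = 0.095), and the replicate block gave 0.57 (adjusted p = 0.00045). DESeq2 also called that change (adjusted p = 0.045). Inhba with DOX averaged 92.9 ± 17.3 CPM at passage 7 and 66.6 ± 8.69 CPM at passage 4; the libraries did not overlap, but edgeR gave an adjusted p of 0.099 (log2 change 0.47, SE 0.21). The replicate block gave Inhba an adjusted p of 0.0018 and DESeq2 one of 0.041.

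Tgfbr2 was lower at passage 7 in both conditions, without overlap of libraries. Its log2 change was -0.74 with DOX (SE 0.07, edgeR adjusted p = 7.2e-07) and -0.30 without DOX (SE 0.07, adjusted p = 0.0062). Fst fell to 29.7% of the passage 4 level with DOX (log2 change -1.75, SE 0.18, adjusted p = 2.6e-06) and to 47.4% without DOX (log2 change -1.08, SE 0.15, adjusted p = 0.00011). Sostdc1 fell too, with a fitted log2 change with DOX of -4.38 (SE 0.67, adjusted p = 0.00014), which rests on the 11 counts at passage 7, and of -3.74 without replicate 2 of passage 4 with DOX. Without DOX its log2 change was -2.16 (SE 0.40, adjusted p = 0.0012).

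Fstl1 without DOX averaged 6.58 ± 3.34 CPM at passage 7 and 19.3 ± 9.39 CPM at passage 4, and fell to 34.6% (log2 change -1.53, SE 0.44, edgeR adjusted p = 0.020). Leaving out replicate 1 or 2 of passage 4 without DOX, or replicate 3 or 4 of passage 7 without DOX, lifted its adjusted p to 0.053 to 0.059. With DOX, Fstl1 averaged 3.63 ± 2.11 CPM at passage 7 and 4.46 ± 1.34 CPM at passage 4 and was not called (log2 change -0.36, SE 0.52). Tgfb2 without DOX averaged 3.36 ± 0.412 CPM at passage 7 and 4.78 ± 0.424 CPM at passage 4 (log2 change -0.51, SE 0.19, adjusted p = 0.065), and the replicate block gave an adjusted p of 0.033. All its libraries at passage 7 without DOX lay below those at passage 4.

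Smad7 was lower at passage 7 in replicates 3 and 4 and was not called in replicates 1 and 2. With DOX its log2 change was 0.12 (adjusted p = 0.27) in replicates 1 and 2 and -0.45 (adjusted p = 7e-05) in replicates 3 and 4. Without DOX the change was 0.16 (adjusted p = 0.13) in replicates 1 and 2 and -0.45 (adjusted p = 0.00012) in replicates 3 and 4. Over all 4 replicates the adjusted p was 0.32 with DOX and 0.40 without DOX. The difference between the pairs was not tested.

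Other genes of these pathways were counted from 8 lists of 132 genes, of which 85 passed the filter. With DOX at passage 4, 9 of the 85 were higher and 21 lower, which is 35.3% beside 17.5% of all genes. At passage 7, 11 were higher and 22 lower, which is 38.8% beside 22.6% of all genes. By list, the share called at passage 4 ran from 9.09% (BMP targets) to 63.6% (TGF-beta ligands and latency). At passage 7 it ran from 27.3% (BMP targets) to 66.7% (BMP ligands). The block gave 16 of the 85 higher and 26 lower at passage 4, where it called 27.3% of all genes. The median log2 change of the 85 was -0.04 at passage 4 and -0.11 at passage 7. Shares above those of all genes also stood between passages, at 52.9% of the 85 beside 34.1% with DOX and 31.8% beside 25.6% without. The lists were chosen with earlier results of these data known, so these shares are a description and not a test of the pathway. The genes named here were past the threshold in the same direction at both passages unless stated, at most 4 per list. Fewer cells of a kind and less RNA per cell cannot be told apart in bulk RNA.

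Among the TGF-beta ligand and latency genes, 1 of 11 rose and 6 fell at passage 4 (63.6%, beside 17.5% of all genes). At passage 7, 1 rose and 4 fell (45.5%, beside 22.6%). Ltbp4, whose product tethers latent TGF-beta to the matrix, rose with a log2 change of 1.33 at passage 4 (15.1 CPM with DOX and 5.99 without) and 1.46 at passage 7 (20.5 with DOX and 7.48 without). The block gave 7 lower at passage 7, where it called 31.7% of all genes. Tgfb3, the third TGF-beta isoform gene, fell at both, with log2 changes of -1.03 at passage 4 and -0.89 at passage 7. Thbs1, which encodes the latent TGF-beta activator thrombospondin-1, fell with log2 changes of -0.85 at passage 4 and -0.67 at passage 7. Itgav, the alpha v integrin subunit gene, had -0.35 and -0.50. Of the 3 activin, inhibin, nodal and GDF ligand genes tested, 1 was called at each passage (33.3%). It was Gdf11, a GDF ligand gene, which fell with log2 changes of -1.23 at passage 4 and -1.42 at passage 7. With the block, 2 of the 3 were lower at passage 7.

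Of 6 other BMP ligand genes, 2 rose and 1 fell at passage 4 (50%, beside 17.5% of all genes). At passage 7, 2 rose and 2 fell (66.7%, beside 22.6%). Bmp7, a survival signal of kidney progenitors, averaged 28.5 CPM with DOX and 20.0 CPM without at passage 4, and 80.6 CPM with DOX and 55.4 CPM without at passage 7 (log2 changes 0.51 and 0.54). Bmp8b rose, with log2 changes of 0.49 at passage 4 and 0.46 at passage 7, and Bmp6 fell, with -1.16 and -0.81. Among 13 receptor and co-receptor genes, 2 rose and 1 fell at passage 4 (23.1%, beside 17.5% of all genes). At passage 7, 1 rose and 3 fell (30.8%, beside 22.6%), and none was called in the same direction at both passages. With the block, 1 of the receptor genes rose and 5 fell at passage 7, where it called 31.7% of all genes.

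Of 8 other secreted antagonist and modulator genes tested, 2 rose and 2 fell at each passage. That is 50%, beside 17.5% of all genes at passage 4 and 22.6% at passage 7. Nbl1, the gene of a BMP antagonist of the DAN family, rose by 0.88 at passage 4 and 0.40 at passage 7. Its responses were called different (difference -0.48, SE 0.11, edgeR adjusted p = 0.047), close to the threshold. That call was lost under upper-quartile scaling and in at least 1 fit with a library left out. Dcn, the gene of the TGF-beta-binding proteoglycan decorin, rose by 1.52 and 1.15 with group means of at most 3.44 CPM. Crim1, a transmembrane BMP modulator gene, fell with -0.31 and -0.22. The fall of Fst and Sostdc1 at both passages was not shared by all antagonist genes, although no test set the 10 genes against these.

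Of 20 SMAD and regulator genes, 2 rose and 4 fell at passage 4 (30%, beside 17.5% of all genes). At passage 7, 4 rose and 4 fell (40%, beside 22.6%). Smad3, the transducer of TGF-beta and activin signals, fell with log2 changes of -0.31 at passage 4 and -0.41 at passage 7. Smad1, a transducer of BMP signals, fell with -0.25 and -0.19, and Nedd4l, a ubiquitin ligase of SMAD2 and SMAD3, fell with -0.26 and -0.58. Ppm1a, a phosphatase gene, rose with 0.15 and 0.16. The block gave 5 higher and 5 lower at passage 4, where it called 27.3% of all genes.

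Of 15 TGF-beta and activin target genes, 6 fell at passage 4 (40%, beside 17.5% of all genes). At passage 7, 1 rose and 4 fell (33.3%, beside 22.6%). At passage 4 the block called 3 higher and 7 lower, where it called 27.3% of all genes. Col4a1 and Col4a2, which encode collagen chains of basement membranes, fell with log2 changes of -1.70 and -1.94 at passage 4 and of -0.78 and -0.75 at passage 7. Fn1, the fibronectin gene, averaged 681 CPM with DOX and 1658 CPM without at passage 4, and 1084 CPM with DOX and 1492 CPM without at passage 7. Cdkn1a, a cell cycle inhibitor gene, fell with log2 changes of -0.26 and -0.44. The responses of Col4a2 (difference 1.20, edgeR adjusted p = 0.0081) and Fn1 (difference 0.82, adjusted p = 0.0088) were called different between passages. Of 11 BMP target genes, 1 rose at passage 4 (9.09%, beside 17.5% of all genes) and 3 fell at passage 7 (27.3%, beside 22.6%). The block gave 2 higher and 3 lower at passage 4, where it called 27.3% of all genes.

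**Figure D4:**
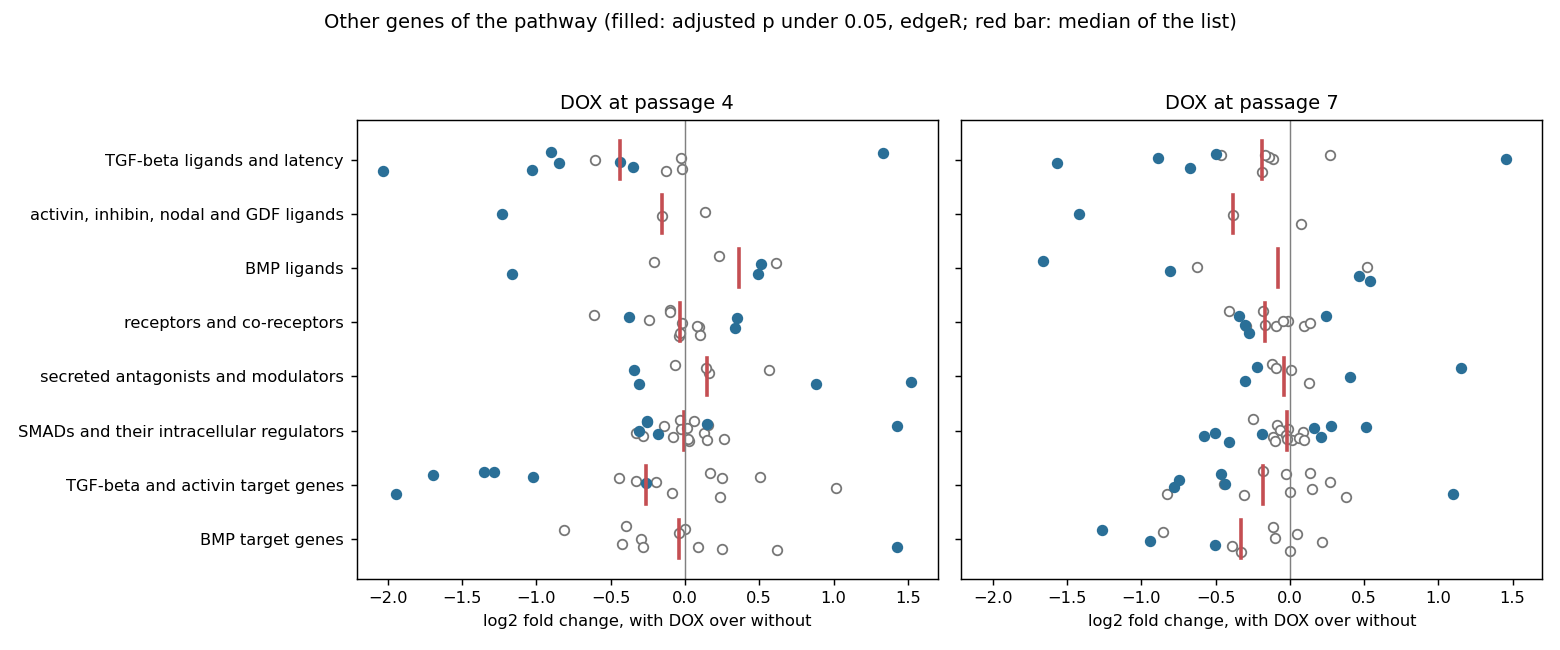
Each point is the log2 fold change with DOX over without DOX (horizontal axis) of 1 other pathway gene, by list (vertical axis), at passage 4 (left) and passage 7 (right), with filled points where the adjusted p was under 0.05 and a red bar at the list's median. The TGF-beta and activin target list has its median at -0.26 at passage 4 and -0.18 at passage 7.

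Markers of other cell types were counted too. Summed fibroblast and smooth muscle markers (11 listed, 4 tested) ran from 17.4 to 20.5 CPM at passage 4 with DOX and from 15.98 to 24.5 CPM without DOX. At passage 7 they ran from 17.6 to 24.5 CPM with DOX and from 14.3 to 19.7 CPM without DOX, with Col3a1 and Lum at 0 in all libraries. Of the 4 tested, Dcn rose with DOX at both passages (values above) and the other 3 were not called. Summed leukocyte markers (8 listed, 3 tested) ran from 20.1 to 35.6 CPM at passage 4 with DOX and from 39.0 to 46.9 CPM without DOX. At passage 7 they ran from 36.3 to 43.8 CPM with DOX and from 67.2 to 75.2 CPM without DOX. All 3 tested leukocyte genes, Ptprc, Cd68 and Csf1r, fell with DOX at both passages, as did 6.08% of all genes. The defining Adgre1 and Itgam had 0 counts in all 16 libraries. Csf1r averaged 24.1 CPM with DOX and 39.9 CPM without at passage 7, and Cd68 15.5 CPM with DOX and 29.9 CPM without. Ptprc averaged only 0.063 CPM with DOX and 1.02 CPM without at passage 7. Summed endothelial markers (6 listed, 1 tested) were at most 2.22 CPM in any library, with Emcn at 0 in all.

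These markers also differed between passages. With DOX, the fibroblast genes Col1a1 and Dcn rose at passage 7 against passage 4 (log2 changes 1.54 and 1.85), as did the endothelial gene Vwf (1.13) and the leukocyte genes Cd68 (0.81) and Csf1r (0.58), while Ptprc fell (-3.66). Without DOX the same 5 genes rose, with log2 changes of 1.76 for Col1a1, 2.22 for Dcn, 2.36 for Vwf, 1.03 for Cd68 and 0.67 for Csf1r, while Ptprc (-1.68) and Acta2 (-0.58) fell. Adjusted p for these changes was at most 0.0322 (edgeR). Several rest on few counts: Ptprc averaged 0.97 CPM at passage 4 and 0.063 CPM at passage 7 with DOX, and 3.26 and 1.02 CPM without DOX. Group means were at most 1.28 CPM for Col1a1, 1.55 CPM for Vwf and 3.44 CPM for Dcn. The part of the markers in the DOX and passage changes of the 10 genes was not tested.

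As a description, the gene whose level followed each of the 10 most closely over the 16 libraries was sought among about 10480 genes of at least 5 CPM (Pearson's r of log2 CPM). For Fst it was Plau, the urokinase gene, with r = 0.99, for Fstl1 Ly75 with 0.98, for Sostdc1 Gsr with 0.98 and for Inhbb Mlec with 0.98. For Tgfbr2 it was Itga3, an integrin gene, with 0.97, for Bmp4 Cdk19 with 0.94, for Tgfb2 Mpdz with 0.91 and for Inhba Diaph3 with 0.91. Tgfb1 had Epn2 at 0.90 and Smad7 had Nup214 at 0.89, the lowest of the 10. These libraries share groups and replicate pairs, so such values do not separate the genes' own likeness from that of the groups.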

How the data were processed

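RNA of 16 libraries was measured in 4 groups of 4. Per the labels' protocols, poly(A) RNA was made into strand-marking libraries, read as 2 × 75 bp and aligned to GRCm38.p6 (STAR 2.6.0c). Whole-number gene counts, not normalized, and TPM values were deposited by the authors, each by Ensembl identifier. The counter, annotation release, strand setting and way of making TPM are not given in the sources used here. Symbols matched 55450 of 55536 identifiers in a GRCm38 annotation.

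The deposited counts (9937504 to 17188295 per library) were filtered with filterByExpr, which left 15316 genes, and TMM-scaled. edgeR 4.0.16 in R 4.3.3 was fitted with 1 mean per group over all 16 libraries (robust quasi-likelihood, 12 residual degrees of freedom) with Benjamini-Hochberg adjustment across the tested genes and a threshold of 0.05. DESeq2 1.42.0 and other scalings, filters and fits were alternatives. The scripts were tested on simulated data. Values within replicate pairs come from a fit with a mean for each pair of each group.

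The 16 TPM headers were compared with the count columns: 4 held the values of their namesake among the counts and 12 those of another group, so no TPM value is reported and limma 3.58.1 on log2(TPM + 1) as headed is an alternative only.

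Pairing was taken from the data: the labels number replicates 1 to 4 in each group, and deviations from the group means correlated at 0.18 to 0.37 between the 24 same-numbered library pairs of different groups. They correlated as well, at 0.18 to 0.39, with the other number of the same pair (1 with 2, 3 with 4), and at -0.34 to -0.18 across pairs. No 2 libraries of a group agreed within sampling noise (chi-square per degree of freedom 1.88 at the least).

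The 10 genes and all lists were chosen with earlier results of these data known. Besides the 10 and Pkd2, the text names per list up to 4 genes with the smallest adjusted p called in the same direction with DOX at both passages, up to 2 ranked likewise by the difference of responses, and the gene most like each of the 10. Sequences are RefSeq promoter windows of GRCm38.p6.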

Additional observations from a re-analysis of the deposited data

Results flagged for a closer look

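In 40 combinations of gene and group, each of 4 libraries, 2 had 1 library far from the other 3, and chance gives about 1 in 20. Tgfb1 at passage 4 with DOX had 34.8 CPM in replicate 2, against 44.5 to 46.4 CPM in the other 3. Bmp4 at passage 4 with DOX had 1.12 CPM in replicate 3, against 1.86 to 2.00 CPM in the other 3. The response of Tgfbr2 to DOX was called different between passages, by -0.44 on the log2 scale (passage 7 minus passage 4, edgeR adjusted p = 0.0465). Leaving out any of 13 of the 16 libraries lifted that adjusted p above 0.05, and upper-quartile scaling ended the call.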

How the results depend on the processing

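Every call of a change of the 10 genes with DOX kept its side of the threshold under each alternative fitted to all 4 replicates of the counts and with each library left out; within replicates 1 and 2 alone, Sostdc1 at passage 4 did not (-0.67, adjusted p = 0.13). With the replicate block, genes called were 2 higher and 5 lower for DOX at passage 7, 2 and 2 for the difference, and 2 higher at passage 7 over 4 without DOX. The other pathway genes were 16 higher for DOX at passage 4, 7 and 7 for the difference, and 14 lower at passage 7 over 4 without DOX. A term for the replicate pair gave the same counts for the 10 genes and 17, 9, 9 and 14 for the others; the block ended no call of the 10 genes and, beyond those given with each gene, changed none. DESeq2 gave 2 higher at passage 7 over 4 without DOX, and 5 higher and 4 lower for the difference among other pathway genes. Upper-quartile scaling gave 0 lower for the difference in both sets. Without a filter, 1 of the 10 genes was higher at passage 7 over 4 with DOX; no filter and a 1 CPM filter each gave 2 other pathway genes lower for the difference. Fitting only the groups compared gave 1 higher for DOX at passage 7. The TPM table as headed gave 1 lower for DOX at passage 4, 0 at passage 7, 0 for the difference, 0 higher and 1 lower at passage 7 over 4 with DOX, and 0 higher and 2 lower without DOX; by construction it mixes the groups. For the rest the cause was not tested.

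With each library left out in turn, the 10 genes gave 3 to 4 lower for DOX at passage 7, 0 to 1 lower for the difference, 1 to 2 higher at passage 7 over 4 with DOX, and 1 to 2 higher and 3 to 5 lower without DOX. The other pathway genes gave 6 to 10 higher and 16 to 22 lower for DOX at passage 4, 7 to 12 higher and 17 to 23 lower at passage 7, 2 to 4 higher and 0 to 2 lower for the difference, 18 to 22 higher and 14 to 23 lower at passage 7 over 4 with DOX, and 13 to 20 higher and 7 to 11 lower without DOX. Direction changed only for uncalled values: Bmp4 (-0.32 to 0.065) and Tgfb1 (-0.085 to 0.054) for DOX at passage 4, Smad7 for the difference (-0.14 to 0.048, and 0.0016 without a filter), and Tgfb1 (-0.12 to 0.020) and Tgfb2 (-0.35 to 0.026) for passage with DOX. Depth limits Sostdc1 at passage 7 with DOX most, with 11 counts in all.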
